A study of Mus musculus with 2 samples.

Results

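The BCL2 family decides whether the outer membrane of the mitochondrion is opened during apoptosis. Its 10 members described here are the genes listed for this family by symbol: the anti-apoptotic Bcl2, Bcl2l1 and Mcl1, the pore-forming effectors Bax and Bak1, and the BH3-only genes Bad, Bid, Bcl2l11, Bbc3 and Pmaip1. All 10 were found among the 55468 entries of the deposited table, each as a single entry, and all 10 were measured, meaning at least 1 FPKM (fragments per kilobase of transcript, scaled to library size) in at least 1 library. The same held for 12193 genes in all.

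The resistant group was KPC2, a mouse pancreatic cancer cell line, kept long term with gemcitabine at 260 ng/mL; the drug is a deoxycytidine analogue that is built into DNA. The wild type group was KPC2 without the drug, and both were grown in DMEM with serum. RNA was sequenced from 1 library per group. With no replicate, no test between the conditions was possible, and each difference below describes these 2 libraries. The labels give neither the genotype of the line nor whether the resistant cells are a clone or a pool, and drug in the medium cannot be told apart from a lasting state of the resistant cells. Of 7 epithelial markers, 4 were measured: Krt8, Krt18, Krt19 and Cdh1 stood at 164 FPKM or more in each library. Epcam, Cldn4 and Cldn7 lay under 1 FPKM in both. The 8 leukocyte markers summed to 7.27 FPKM in the resistant and 1.63 FPKM in the wild type library, with 2 measured (Cd68 and Lyz2) and the defining gene Ptprc at 0.23 FPKM in the resistant library and listed at 0 in the wild type. The part of these markers in the results was not tested. All 7 fibroblast and all 5 endothelial markers were under 1 FPKM in both libraries, and of 8 acinar and islet markers Cela1 alone was measured.

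In healthy cells BCL2, BCL-XL (the product of Bcl2l1) and MCL1 hold BAX and BAK in check. Stress signals raise or activate BH3-only proteins, which bind the groove of the anti-apoptotic proteins or engage BAX and BAK directly. BAX and BAK then form pores through which cytochrome c leaves the mitochondrion. The BH3-only proteins differ in their partners: PUMA (Bbc3) and BIM (Bcl2l11) bind all anti-apoptotic proteins, BAD prefers BCL2 and BCL-XL, and NOXA (Pmaip1) prefers MCL1. Much of the control of the family is on the protein, which these RNA data do not cover.

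The members furthest apart between resistant and wild type cells were BH3-only genes, while Bcl2l1, Mcl1, Bax and Bak1 were close and Bcl2 was low in both. Pmaip1 and Bbc3 stood higher in resistant cells by 2-fold or more, Bad stood lower by 2-fold or more, and the other 7 members lay within 2-fold. Folds were called on log2((resistant FPKM + 1)/(wild type FPKM + 1)), a scale that understates differences of low genes, at a size of 1 or more. Of the 10 members 2 were thus called higher, against 7.9% of the 12193 measured genes, and 1 was called lower, against 8.37%. In either direction 3 of 10 were called, against 16.3%. The members' median log2 ratio was -0.03 and that of all measured genes 0.02, and 5 of the 10 members lay between the lower and upper quartile of measured genes. With 10 members these shares are a description and set the family apart from no other group of genes. In the authors' deposited table, whose test rests on 1 library per side, none of the 10 was called, against 0.404% of the genes they tested.

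**Figure D1:**
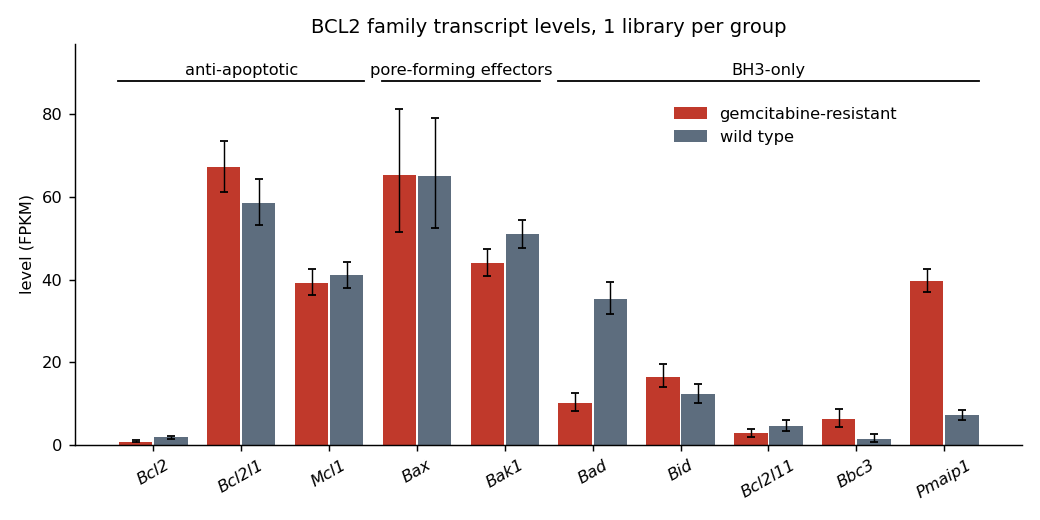
Level of each member in FPKM (y axis) in the gemcitabine-resistant library (red) and the wild type library (grey), 1 library each. Bars start at 0, and error bars are 95% counting intervals for the shortest annotated coding transcript, which gives the widest interval. Pmaip1, Bbc3 and Bad are the members whose bars lie farthest apart on a fold scale, while Bax, Bak1, Mcl1 and Bcl2l1 are nearly level.

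The promoter windows of 3 members are printed first, because they carry the FOXO and p53 motifs found in this family and belong to members with different log2 ratios. They are RefSeq windows of 300 bases around an annotated start, on GRCm38.p6, read 5′ to 3′ on the gene's strand. The capitals in the Bbc3 and Bcl2l11 windows mark the FOXO core GTAAACA on either strand, and those in the Bax window mark a p53 half-site.
Bbc3, chr7:16310011-16310310, plus strand: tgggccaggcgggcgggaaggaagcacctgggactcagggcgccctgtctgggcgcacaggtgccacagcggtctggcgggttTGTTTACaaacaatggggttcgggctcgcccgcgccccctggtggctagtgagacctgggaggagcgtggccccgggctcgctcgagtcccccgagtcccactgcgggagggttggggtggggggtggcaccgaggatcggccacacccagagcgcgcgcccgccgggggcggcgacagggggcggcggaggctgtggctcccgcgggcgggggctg
Bcl2l11, chr2:128125788-128126087, plus strand: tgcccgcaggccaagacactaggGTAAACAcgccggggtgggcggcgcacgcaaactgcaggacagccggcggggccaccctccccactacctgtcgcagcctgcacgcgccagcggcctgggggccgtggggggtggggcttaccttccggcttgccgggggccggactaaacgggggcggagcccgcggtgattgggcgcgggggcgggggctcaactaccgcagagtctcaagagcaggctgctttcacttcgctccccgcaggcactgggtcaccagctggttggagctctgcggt
Bax, chr7:45466849-45467148, minus strand: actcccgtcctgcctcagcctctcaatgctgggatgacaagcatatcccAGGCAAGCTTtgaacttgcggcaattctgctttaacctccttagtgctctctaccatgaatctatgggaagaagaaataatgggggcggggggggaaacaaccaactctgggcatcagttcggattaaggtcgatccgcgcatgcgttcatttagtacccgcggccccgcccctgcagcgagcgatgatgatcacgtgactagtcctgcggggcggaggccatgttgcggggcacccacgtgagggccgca

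The motifs were sought on both strands in the 15 windows that the RefSeq table holds for 9 of the members (Pmaip1 is not among them). The FOXO core was found in 2 windows, against 3.65% of all 32851 promoter windows, and its genes lay on opposite sides of 0, Bbc3 with a log2 ratio of 1.57 and Bcl2l11 with -0.56. The p53 half-site was found in 1 window, that of Bax, against 8.36% of all windows, and Bax differed by 0.01 on the log2 scale. The C/EBP-ATF element TGATGNAA (3.97% of all windows) and the AP-1 element TGANTCA (7.81%) were in none of the 15. The GC box GGGCGG, not marked here, was in 10 of the 15, against 35.7% of all windows. In the windows shown the marked motifs overlap no other motif of the search. A match here is a run of letters and says nothing of binding, and its absence covers this window alone.

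Pmaip1 (ENSMUSG00000024521) encodes NOXA, a BH3-only protein induced by p53 and by the integrated stress response that binds MCL1 and promotes its breakdown. It lies on chromosome 18 of GRCm38, from 66458533 to 66465565 on the plus strand. It stood at 39.7 FPKM in resistant cells, against 7.17 FPKM in wild type cells, a 5.53-fold higher level and a log2 ratio of 2.32 with the pseudocount of 1. The resistant library was the high one, and its 95% counting interval (38.1 to 41.3 FPKM) does not overlap that of the wild type (6.53 to 7.88 FPKM). These intervals take fragments per gene from the longest coding transcript and cover counting error only, not the spread between cultures. Of all measured genes 98.8% had a lower log2 ratio. Among the 10 members Pmaip1 ranked 4 by level in resistant cells, against 7 in wild type cells. In the authors' deposited table its p-value was 0.0016 and its q-value 0.182, the lowest of the family and not called by them.

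Bbc3 (ENSMUSG00000002083; chromosome 7, 16308393 to 16318205, plus strand) encodes PUMA, a potent p53-induced killer protein that binds every anti-apoptotic relative. It stood at 6.23 FPKM in resistant cells, against 1.43 FPKM in wild type cells, a 4.36-fold higher level. Its log2 ratio was 1.57 with the pseudocount and 2.12 without, and 97.1% of measured genes had a lower one. At the longest coding transcript these levels rest on about 239 fragments in the resistant and 57 in the wild type library, and the 95% interval of the log2 ratio without pseudocount was 1.70 to 2.57 (exact binomial). At the shortest coding transcript the numbers would be about 34 in the resistant and 8 in the wild type library, and the interval 0.99 to 3.45. In wild type cells Bbc3 was the lowest of the 10 members. At a pseudocount of 5 its log2 ratio was 0.80, under the 2-fold line.

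Bad (ENSMUSG00000024959; chromosome 19, 6941861 to 6951899, plus strand) encodes a BH3-only protein that survival kinases phosphorylate and that is then held in the cytosol. It stood at 10.1 FPKM in resistant cells, against 35.3 FPKM in wild type cells. That is a 3.49-fold lower level in resistant cells, with a log2 ratio of -1.71, and 1.7% of measured genes had a lower ratio. The 95% counting intervals, 9.03 to 11.3 FPKM in resistant and 33.3 to 37.3 FPKM in wild type cells, do not overlap. The start of Bad overlaps Gpr137 on the opposite strand, and without strand in the counting, reads of the overlap cannot be told apart. Gpr137, named by position, stood at 12.4 FPKM in resistant and 23.3 FPKM in wild type cells, a log2 ratio of -0.86. The part of that overlap in the value of Bad was not tested.

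Bid (ENSMUSG00000004446; chromosome 6, 120891930 to 120916853, minus strand), the BH3-only gene whose product links death receptors to the mitochondrion after cleavage by caspase-8, stood at 16.5 FPKM in resistant and 12.3 FPKM in wild type cells, a log2 ratio of 0.40. Bcl2l11 (ENSMUSG00000027381; chromosome 2, 128126038 to 128162547, plus strand), which encodes BIM, stood at 2.78 FPKM in resistant and 4.57 FPKM in wild type cells, a log2 ratio of -0.56. Both lay within 2-fold. At the longest coding transcript the counting interval of Bcl2l11 without pseudocount, -0.92 to -0.51, lies below 0. That of Bid, 0.28 to 0.59, lies above it. At the shortest coding transcript the intervals come near 0, at -1.38 to -0.07 for Bcl2l11 and 0.06 to 0.80 for Bid. Counting error alone does not span either difference, though by a small margin at the shortest transcript. The end of Bid overlaps the family relative Bcl2l13 on the opposite strand, which stood at 58.1 FPKM in resistant and 28.7 FPKM in wild type cells. Without strand in the counting, reads of this overlap cannot be told apart. The part of the overlap in the value of Bid was not tested.

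**Figure D2:**
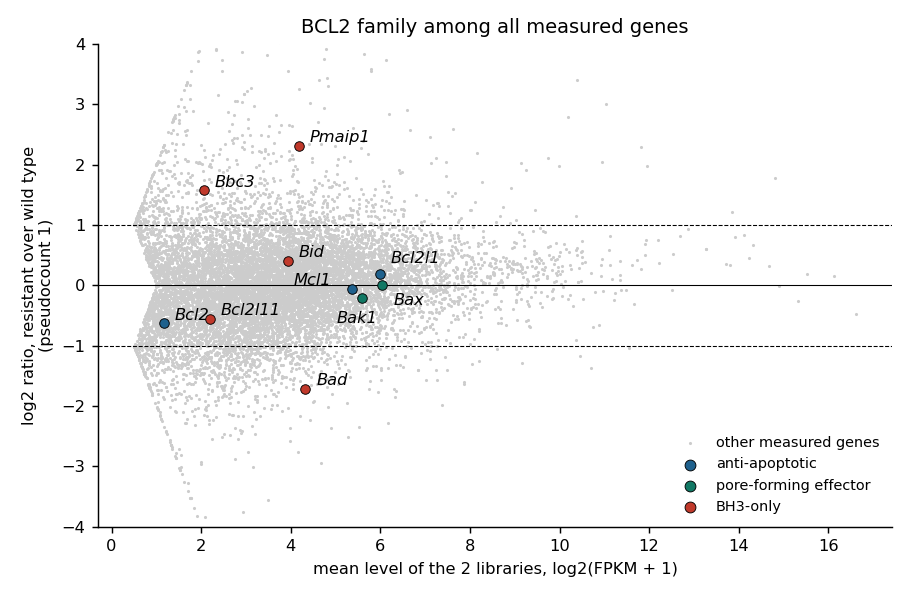
Each point is a measured gene, with the mean log2(FPKM + 1) of the 2 libraries on the x axis and the log2 ratio of resistant over wild type on the y axis, and dashed lines at 1 and -1 (63 genes whose ratio is over 4 in size lie beyond the axis). The 10 members are labelled and coloured by role: Pmaip1 (2.32) and Bbc3 (1.57) lie above the upper line, Bad (-1.71) below the lower one, and the other 7 between them.

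The 5 BH3-only members summed to 75.3 FPKM in resistant and 60.7 FPKM in wild type cells, so the total differed less than its make-up. Pmaip1 made up 52.7% of that sum in resistant cells, against 11.8% in wild type cells. Bad made up 13.4% in resistant cells, against 58.1% in wild type cells. Bbc3 accounted for 8.27% of the sum in resistant and 2.36% in wild type cells, and Bid for 22.0% in resistant and 20.2% in wild type cells. The share of Bcl2l11 was 3.70% in resistant and 7.53% in wild type cells. The most abundant BH3-only transcript per length was therefore Pmaip1 in the resistant library and Bad in the wild type library. The total depended on both Pmaip1 and Bad. Without Pmaip1 the other 4 summed to 35.6 FPKM in resistant and 53.5 FPKM in wild type cells. Without Bad the other 4 summed to 65.2 FPKM in resistant and 25.4 FPKM in wild type cells. Pmaip1 and Bad are the members furthest apart in FPKM, so these sums are a description and no test.

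**Figure D3:**
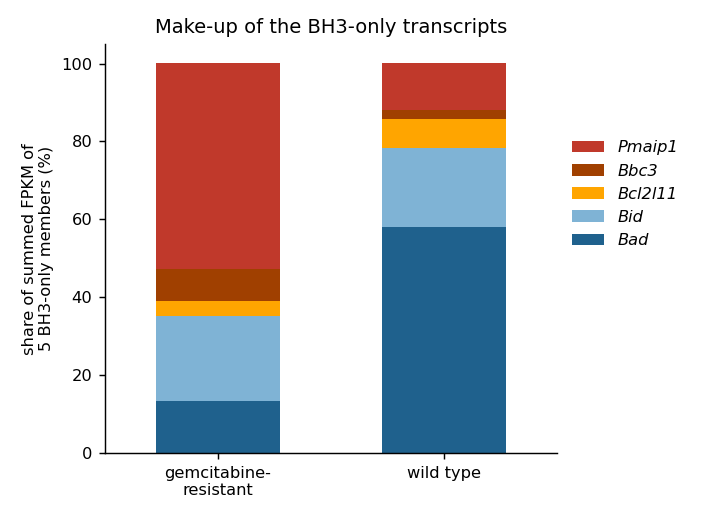
Share of the summed FPKM of the 5 BH3-only members (y axis, percent) in the gemcitabine-resistant and the wild type library, 1 library each. Pmaip1 takes 52.7% of the bar in resistant cells against 11.8% in wild type cells, and Bad 13.4% in resistant cells against 58.1% in wild type cells.

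The anti-apoptotic genes summed to 107 FPKM in resistant and 101 FPKM in wild type cells. Bcl2l1, which encodes BCL-XL (ENSMUSG00000007659; chromosome 2, 152780668 to 152831728, minus strand), stood at 67.2 FPKM in resistant and 58.6 FPKM in wild type cells, a log2 ratio of 0.20. Its counting interval without pseudocount, 0.13 to 0.27 at the longest coding transcript and 0.01 to 0.39 at the shortest, lies above 0. That interval covers no difference in scaling: rescaled to the same upper quartile, the log2 ratio of Bcl2l1 was 0.11. Bcl2l1 was the most abundant of the 3 in both libraries. Mcl1, whose protein turns over fast (ENSMUSG00000038612; chromosome 3, 95658788 to 95663176, plus strand), stood at 39.3 FPKM in resistant and 41.0 FPKM in wild type cells, a log2 ratio of -0.06. Its counting interval without pseudocount, -0.13 to 0.01, includes 0. Bcl2l1 encodes a long and a short protein with opposite roles through splicing, and the gene-level values do not separate them.

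Bcl2 (ENSMUSG00000057329; chromosome 1, 106538178 to 106714274, minus strand), the founding anti-apoptotic gene, was near the detection filter at 0.81 FPKM in resistant and 1.79 FPKM in wild type cells. The level in wild type cells was 2.22-fold that in resistant cells as such, but the log2 ratio with the pseudocount was -0.63, within 2-fold. The counting interval without pseudocount, -1.45 to -0.85 at the longest coding transcript and -1.66 to -0.66 at the shortest, lies below 0. At a pseudocount of 0.1 the log2 ratio was -1.06, past the line. Per length, Bcl2l1 exceeded Bcl2 83.3-fold in resistant and 32.7-fold in wild type cells.

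The effector genes differed little between the libraries. Bax (ENSMUSG00000003873; chromosome 7, 45461697 to 45466898, minus strand) stood at 65.3 FPKM in resistant and 65.0 FPKM in wild type cells, and its counting interval of -0.10 to 0.11 includes 0. Bak1 (ENSMUSG00000057789; chromosome 17, 27019810 to 27029009, minus strand) stood at 44.0 FPKM in resistant and 51.0 FPKM in wild type cells, a log2 ratio of -0.21. Its counting interval, -0.29 to -0.13 at the longest coding transcript and -0.35 to -0.07 at the shortest, lies below 0. Together they summed to 109 FPKM in resistant and 116 FPKM in wild type cells. Bax shares its locus in the table with Ppp1r15a, a stress-induced phosphatase regulator that does not overlap it and stood at 33.4 FPKM in resistant and 4.49 FPKM in wild type cells. Nucb1, which shares the locus and does not overlap Bax either, stood at 89.3 FPKM in resistant and 77.3 FPKM in wild type cells, a log2 ratio of 0.21. The other entries of the locus were under 1 FPKM in both libraries. Ppp1r15a and Nucb1 were named after their values were seen. Bak1 lies within the span of Ggnbp1 on the opposite strand, which was low, at 1.12 FPKM in resistant and 0.41 FPKM in wild type cells.

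Levels of partner genes can be set side by side per length, as ratios of transcripts and not of proteins. There were 0.99 Mcl1 transcripts for each Pmaip1 transcript in resistant cells, against 5.72 in wild type cells. The ratio of Bcl2l1 to Bad was 6.66 in resistant and 1.66 in wild type cells. Bcl2l1 stood to Bax as 1.03 in resistant and 0.90 in wild type cells, and Mcl1 to Bak1 as 0.89 in resistant and 0.80 in wild type cells. Bcl2l1 stood to Bak1 as 1.53 in resistant and 1.15 in wild type cells. These ratios between anti-apoptotic genes and effectors were closer between the libraries than those with Pmaip1 and Bad. The latter follow from the differences of Pmaip1 and Bad given above. Mcl1 exceeded Bbc3 6.30-fold in resistant and 28.7-fold in wild type cells.

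The nearest measured protein-coding genes on each side of the 3 members that were called, named by position, lay within 2-fold, as did 83.7% of all measured genes. Beside Bbc3, Ccdc9 and Sae1 had log2 ratios of 0.51 and 0.07. Beside Pmaip1, Lman1 and Chmp1b had 0.15 and -0.80. Beside Bad, Gpr137 had -0.86 and Plcb3 -0.51.

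Other proteins of the BCL2 family showed no member past 2-fold on this scale, against 16.3% of all measured genes. Of 15 genes 7 were measured, and their median log2 ratio was 0.02. The 2 highest, named after their values were seen, lay just under the line. Bok, a relative of Bax and Bak1, stood at 55.4 FPKM in resistant and 27.3 FPKM in wild type cells, a log2 ratio of 0.996. Bcl2l13, a mitochondrial membrane relative with a role in mitophagy, had 0.99. Without a pseudocount the resistant library stood at 2.03 (Bok) and 2.02 (Bcl2l13) times the wild type level. With Bok added, the effectors summed to 165 FPKM in resistant and 143 FPKM in wild type cells. The lowest was the BH3-only gene Bmf, at 1.35 FPKM in resistant and 3.57 FPKM in wild type cells, a log2 ratio of -0.96 and, without a pseudocount, a wild type level 2.65 times that in resistant cells. Bik, Hrk, Bcl2l10, Bcl2a1a and Bcl2a1d were listed at 0 in both libraries.

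Of 15 measured genes for transcription factors known to act on BH3-only genes, 5 passed the 2-fold line upwards, against 7.9% of measured genes, and 2 downwards, against 8.37%, with a median log2 ratio of 0.43. The list was chosen with earlier results of these data known, so these counts describe it and are no test. Atf3 stood at 53.1 FPKM in resistant and 2.29 FPKM in wild type cells. Ddit3, which encodes CHOP, the factor of endoplasmic reticulum stress, stood at 187 FPKM in resistant and 12.2 FPKM in wild type cells. The other 3 higher genes, named after their values were seen, were Atf4, Jun and Snai2, with log2 ratios of 1.25, 1.09 and 2.07. SNAI2 is known as a repressor of Bbc3 in blood progenitors. The lower ones were E2f3 (2.42 FPKM in resistant, 6.62 FPKM in wild type cells) and Mycn (0.62 FPKM in resistant, 2.29 FPKM in wild type cells). Trp53 and Foxo3, named for their link to the members, stood at 50.0 and 9.42 FPKM in resistant cells, against 82.0 and 5.03 FPKM in wild type cells, both within 2-fold.

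Of 19 measured genes of the p53 pathway, 1 passed the 2-fold line upwards, against 7.9% of measured genes, and 1 downwards, against 8.37%, with a median log2 ratio of 0.04. The higher one was the stress sensor gene Sesn2, at 5.39 FPKM in resistant and 2.12 FPKM in wild type cells. The lower one was the phosphatase gene Ppm1d, at 2.81 FPKM in resistant and 8.02 FPKM in wild type cells.

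**Figure D4:**
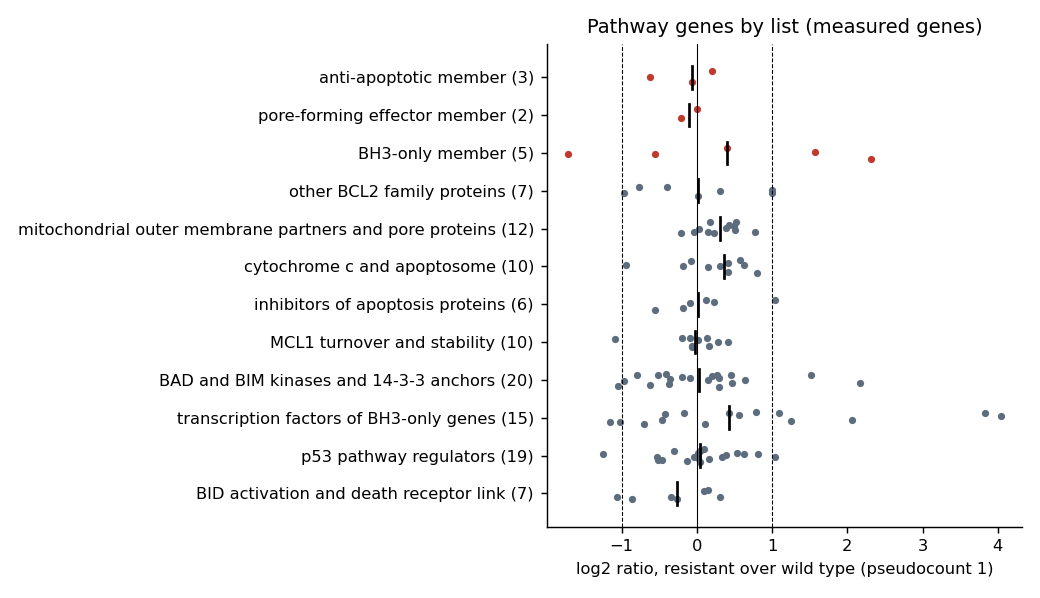
Log2 ratio of resistant over wild type (x axis) for each measured gene of the family roles (red) and of pathway lists (grey), with the number of genes in brackets, black bars for medians and dashed lines at 1 and -1. BH3-only members spread from -1.71 to 2.32, and the transcription factor list has 5 genes past 1, while the mitochondrial and apoptosome lists have none. The lists were chosen with earlier results of these data known.

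Among kinases and anchors that act on BAD and BIM proteins, 2 of 20 genes passed the 2-fold line upwards and 1 downwards, with a median of 0.03. These counts are near the 7.9% and 8.37% of all measured genes. The kinase genes Pim3 and Pim1, whose products phosphorylate BAD, were higher: Pim3 stood at 111 FPKM in resistant and 23.7 FPKM in wild type cells, and Pim1 at 37.3 FPKM in resistant and 12.4 FPKM in wild type cells. Akt1, also a BAD kinase gene, was lower, at 70.6 FPKM in resistant and 147 FPKM in wild type cells. Fbxw7 alone of 10 measured genes of MCL1 turnover was past 2-fold, at 3.30 FPKM in resistant and 8.14 FPKM in wild type cells. It encodes a substrate receptor of a ubiquitin ligase for MCL1. The median of the MCL1 turnover list was -0.02. Upstream of BID, Fadd alone of 7 measured genes was past 2-fold, in the lower direction, at 1.38 FPKM in resistant and 3.95 FPKM in wild type cells, with a list median of -0.26. Fbxw7 and Fadd were each 1 lower gene in a short list, and 8.37% of all measured genes were lower by 2-fold or more. These counts set neither list apart.

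Downstream of the pore, none of 10 measured cytochrome c and apoptosome genes was past 2-fold, against 16.3% of all measured genes. The same held for a separate list of 12 genes of mitochondrial membrane proteins and their partners. The medians of the 2 lists were 0.36 and 0.31, against 0.02 for all measured genes. Of 6 measured inhibitor of apoptosis genes, Birc3 was higher, at 7.07 FPKM in resistant and 2.94 FPKM in wild type cells, and the other 5 lay within 2-fold, with a list median of 0.02.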

How the data were processed

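Per the submitters' processing notes, HISAT2, StringTie and GRCm38 were used, with no role or version, and strand use not given in the sources used here. No unit stands in the header of the deposited table, and its values were taken to be FPKM computed by the authors. In support of that reading, low values of genes with a single transcript, multiplied by length less 170 bases (resistant) or 160 bases (wild type), lay within 0.1 of whole fragments in 93.8% and 93.0% of cases. A kilobase of such length gave 0.0429 (resistant) and 0.0418 (wild type) FPKM per fragment. Per the file headers, the table also holds the authors' log2 fold change, test score, p-value and q-value. Fragments per member were approximated from these steps and its longest or shortest coding transcript in GENCODE M21 (GRCm38), with exact Poisson or binomial intervals at 95%. Rows of 1 symbol were summed, and 13 rows marked as failed or too deep were left out. A pseudocount of 1 and a filter of 1 FPKM were used, and the alternatives are given in the closing section. Members, gene lists, the rule for named genes and the alternatives were chosen with earlier results of these data known. The rule names all members, up to 2 genes per list and direction past 2-fold, and genes by position. The calling of folds was run on simulated data that held counting error only, with large folds in well expressed genes. That run covers neither the spread between cultures, nor low genes, nor folds near the 2-fold line. Versions were matplotlib 3.10.9, Python 3.11.15, scipy 1.17.1, pandas 2.3.3 and numpy 2.4.6.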

Additional observations from a re-analysis of the deposited data

How the results depend on the processing

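Of 68 member log2 ratios recomputed under the alternatives, 10 moved further than the average margin on 1 side of their counting interval. The other 58 did not. They include all values under the changed filters and the choice of the highest row per symbol, which cannot alter the ratio of a member that is kept. No called ratio changed sign. Pmaip1 ranged from 1.88 to 2.45, Bad from -1.79 to -1.42 and Bbc3 from 0.80 to 2.05. At a pseudocount of 5, 1 member (Pmaip1) was at least 2-fold higher, against 3.51% of measured genes. At a 4-fold threshold 1 was higher (Pmaip1), against 1.8%, and 0 lower, against 1.05%. At a pseudocount of 0.1, 2 members (Bcl2 and Bad) were at least 2-fold lower, against 12.7%. With a filter of 5 FPKM, Bcl2 and Bcl2l11 drop out, which moved the members' median to 0.10. Rescaling the resistant library to the same upper quartile shifted log2 values by -0.09 and changed no fold call of a member. Bax, at 0.01 as deposited, stood at -0.01 and -0.08 under the 2 rescalings. No paired analysis was possible because each group has 1 library. Under the 4-fold threshold the log2 ratios themselves do not change and were not recomputed.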
